A study of Arabidopsis thaliana and Zea mays subsp. mays with 14 samples.

Results

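The open chromatin of sorted Arabidopsis thaliana seedling nuclei was compared between libraries made from 500 nuclei and libraries made from 50000 nuclei. The samples were chosen by their titles, which give the number of nuclei and a replicate number, and made up 4 of the 14 samples of the series (2 libraries per number of nuclei). Their lists held 99288 called regions, out of 249407 in the 10 samples that came with a region list. Of the reference regions called in both libraries of 50000 nuclei, 80.3% were called again, by at least 1 base, in both libraries of 500 nuclei. With 50% of each region required to be covered, 10184 of 21043 were called again. Regions that were called again were mostly shorter, and the regions that were not called lay almost entirely among those with poorer scores.

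All 4 samples were wild-type Col-0 whole seedlings of 7 days, grown on plates with 16 hours of light. Nuclei were freed by chopping, enriched on a density gradient and purified by fluorescence-activated nuclei sorting (FANS). The 6 other libraries used here also held 50000 nuclei and came in pairs: Col-0 seedling nuclei titled crude, nuclei of a 35S:H2AX-GFP seedling line, in which the broadly active 35S promoter drives a tagged histone, and Col-0 root nuclei, all at 7 days. The other 4 samples of the series were not analysed here.

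In ATAC-seq the transposase Tn5 inserts sequencing adapters into DNA that is not wrapped in nucleosomes, and a peak caller marks stretches with many insertions as open regions. In plants such regions lie mostly near the ends of genes, where promoters and other regulatory elements bind transcription factors. A whole seedling mixes all its cell types, so a region used by a small cell population contributes few insertions to the library.

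A caller can lose a region, shorten it or split it, and these outcomes were separated. Reference regions were stretches merged over both libraries of 50000 nuclei and covered in both, 21043 in all. A reference region was kept when both libraries of 500 nuclei covered at least 1 base of it, partly kept when 1 of them did, and lost when neither did. It was narrowed when it was kept and each library of 500 nuclei covered fewer of its bases than each library of 50000 nuclei. Score rank is the place of a region among all regions of its own library by the authors' score, as a percentile in which 0 is the best score.

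Regions called with 500 nuclei were narrower, while their number overlapped between the groups. The libraries of 50000 nuclei held 27632 and 23303 regions and those of 500 nuclei 26089 and 22264, so the groups overlapped. Covered length was 22.4 and 21.0 Mb with 50000 nuclei and 15.8 and 13.9 Mb with 500 nuclei, 68.3% of the length on average (21.7 ± 0.974 against 14.8 ± 1.35 Mb, SD, n = 2 each). Both libraries of 500 nuclei lay below both libraries of 50000 nuclei. The exact two-sided permutation test gave p = 0.667 for the number of regions and p = 0.333 for the covered length, which is the smallest p that 2 libraries against 2 allow. Crude replicate 1, made from 50000 nuclei of another preparation, covered 13.8 Mb, less than either library of 500 nuclei, and crude replicate 2 covered 19.3 Mb. Region midpoints lay inside a protein-coding gene in 51.4% of regions in crude replicate 1 and in 36.2% in crude replicate 2. Such genes make up 54.1% of the chromosomes. What set these covered lengths was not tested.

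Median region width was 634 and 652 bp with 50000 nuclei and 449 and 409 bp with 500 nuclei. Broad regions became fewer. Regions of 3000 bp or more numbered 453 and 759 with 50000 nuclei and 119 and 237 with 500 nuclei. The groups did not overlap in either measure, and the exact permutation p was again 0.333. The annotation of the regions stayed alike. Region midpoints lay within 1000 bp outside a protein-coding gene in 48.7% and 47.6% of regions with 50000 nuclei and in 49.1% and 46.5% with 500 nuclei, and inside such a gene in 36.0% and 38.0% against 35.5% and 38.6%. Both sets of shares overlapped between the groups. The region lists hold no read counts, so depth is unknown and cannot be told apart from the number of nuclei in any value given here, and no counting interval can be given.

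Of the 21043 reference regions, 16898 (80.3%) were kept, 3111 (14.8%) partly kept and 1034 lost, which is 4.91% of those examined. Narrowed regions numbered 11409, or 54.2% of the reference and 67.5% of the kept regions, and in 1488 of them the mean with 500 nuclei was under 50% of the mean with 50000 nuclei. Only 8 regions, 0.038%, were widened by the same rule, although widening could only be measured inside the limits of the reference region. The remaining 5481 kept regions had widths that overlapped between the groups. The partly kept class was uneven: 2582 of its 3111 regions were called in replicate 1 of 500 nuclei and 529 in replicate 2.

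In the other direction, 19347 regions were common to both libraries of 500 nuclei. Both libraries of 50000 nuclei also called 98.1% of them, 1 of the libraries called 330, and neither called 41 (0.212%). When regions were merged over all 4 libraries, so that neither group set the limits alone, 16841 were covered in every library. Of these, 11101 (65.9%) were covered by fewer bases in both libraries of 500 nuclei and 59 (0.35%) by more. Single libraries moved several of these counts by more than 1.5 times, since each class then rests on fewer libraries. Lost regions numbered 2191 without replicate 1 and 3734 without replicate 2 of 50000 nuclei, and 3616 without replicate 1 and 1563 without replicate 2 of 500 nuclei. Narrowed regions numbered 17466 without replicate 2 of 50000 nuclei, and strongly narrowed regions 3767 without replicate 1 of 500 nuclei. Gained regions numbered 317 without replicate 1 and 95 without replicate 2 of 50000 nuclei, and 320 without replicate 1 and 222 without replicate 2 of 500 nuclei. Widened regions numbered 101 and 71 in the last 2 cases and 0 when either library of 50000 nuclei was left out.

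Lost regions were concentrated among the poorer score ranks. Among the 9570 reference regions with a mean rank under 40, 99.9% were kept and 6 were not. The share kept was 97.7% at ranks 40 to 50 and 87.3% at 50 to 60. It was 67.4% at 60 to 70, 42.0% at 70 to 80, 19.9% at 80 to 90 and 7.26% at 90 to 100. Lost regions made up 1.66% at ranks 60 to 70, 7.96% at 70 to 80, 29.7% at 80 to 90 and 62.8% at 90 to 100, and 1032 of the 1034 had a rank of 60 or more. The median rank of lost regions was 87.6 in replicate 1 and 87.6 in replicate 2 of 50000 nuclei, against 31.1 and 33.8 for narrowed regions. This ordering is a description of the called regions and carries no test.

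**Figure D1:**
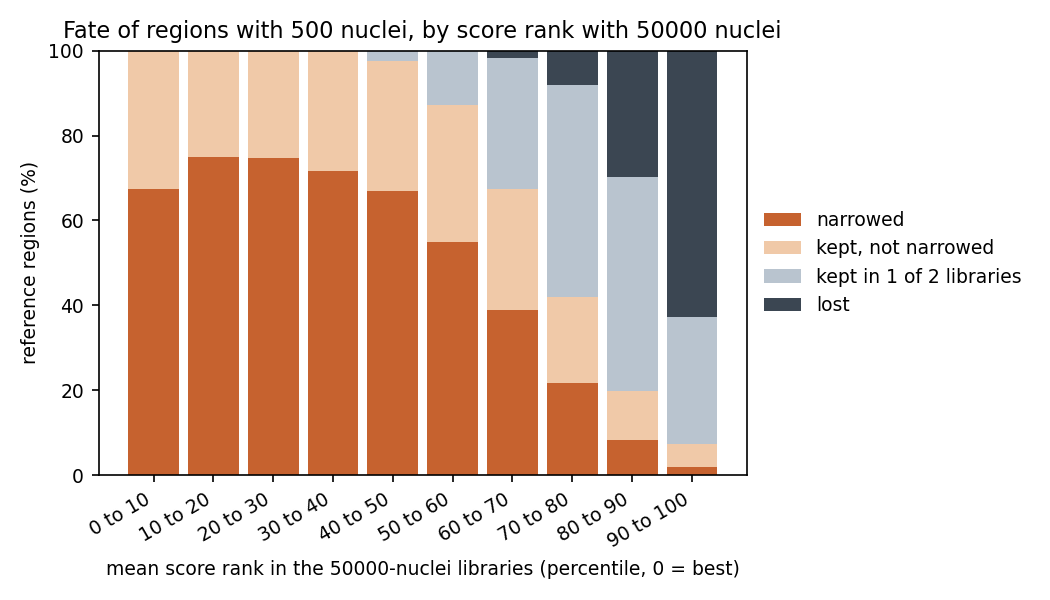
Bars show the percentage of reference regions (vertical axis) in each class with 500 nuclei, grouped by mean score rank in the 2 libraries of 50000 nuclei (horizontal axis, percentile, 0 is the best score). Nearly all regions up to rank 40 were kept, and at ranks 90 to 100 the lost class reached 62.8%.

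Narrowing, unlike loss, was common among the best-ranked regions. Narrowed regions made up 67.4% at ranks 0 to 10, 74.8% at 10 to 20 and 67.0% at 40 to 50, then 39.0% at 60 to 70 and less at every poorer rank, where fewer regions were kept. Counting every reference region, lost ones included, the median share of bases covered with 500 nuclei was 83.1% at ranks 0 to 10, 68.1% at 40 to 50 and 44.4% at 70 to 80. The median number of bases that fell away varied less, from 293 bases at ranks 0 to 10 to 220 at 60 to 70. By width, regions under 300 bases were lost in 28.8% of cases and kept in 29.2%, and no region of 2000 bases or more was lost. Wide regions gave up more bases and a smaller share: regions of 3000 bases or more kept a median of 80.1% and those of 300 to 600 bases 64.0%.

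The bases fell away at both edges. In 12467 reference regions with a single called region in each of the 4 libraries, the mean left edge lay a median of 73.0 bp further in with 500 nuclei and the mean right edge 69.5 bp further in. Both edges moved in for 86.4% of these regions, and the median loss of width was 169.5 bp. Replicates of 50000 nuclei differed from each other by a median of 62.0 bp at the left edge and replicates of 500 nuclei by 52.0 bp, without regard to direction. The shift of a single edge was therefore about as large as the disagreement between replicates, and on the means of 2 libraries 92.6% of left and 92.5% of right edges moved in. In single pairs of libraries the share was lowest for replicate 1 of 500 nuclei against replicate 2 of 50000 nuclei, with 70.7% of left and 69.9% of right edges. Of 5597 regions that lay over 1 gene end, the edge outside the gene moved in by a median of 70.5 bp and the edge inside the gene by 71.0 bp.

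**Figure D2:**
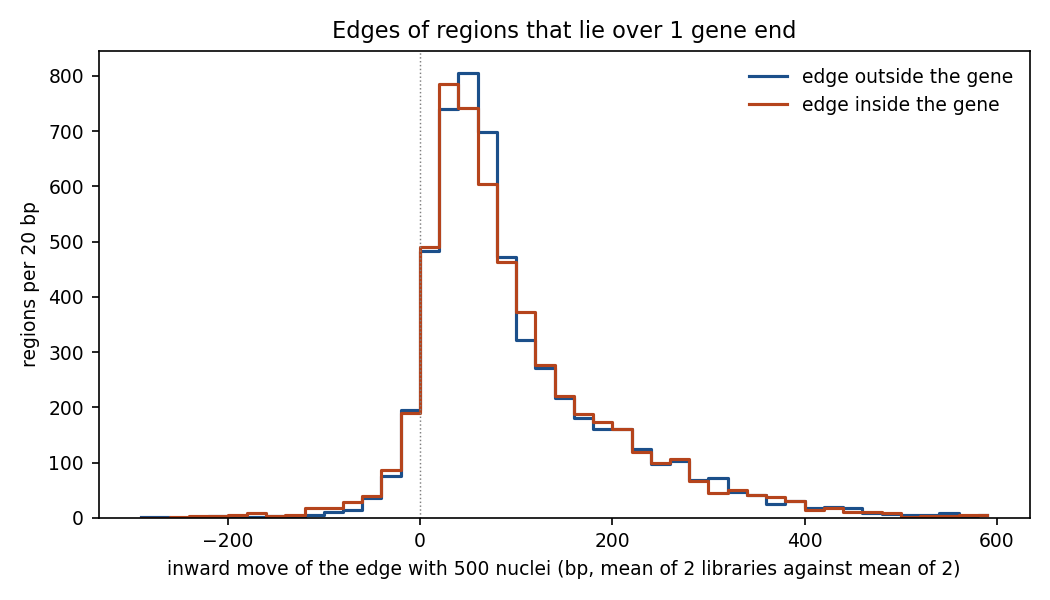
Lines count regions per 20 bp (vertical axis) by how far an edge lay further in with 500 nuclei than with 50000 nuclei (horizontal axis, bp, mean of 2 libraries against mean of 2), for regions over 1 gene end. The curves for the edge outside and the edge inside the gene lie on each other, with medians of 70.5 and 71.0 bp.

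The ratio of coverage was highest close to the gene end. Among 28884 ends of protein-coding genes of at least 2000 bp, the end base was covered in 55.1% and 49.5% of cases with 50000 nuclei and in 44.5% and 37.9% with 500 nuclei, a ratio of 78.8%. The ratio was 66.7% at 300 bp outside the gene and 56.1% at 300 bp inside it, where coverage was 24.7% and 24.0% against 14.1% and 13.2%. Far outside, at 3000 bp, the ratio was 68.8%. Starts and stops of transcription could not be separated, because the gene table used here held no strand.

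**Figure D3:**
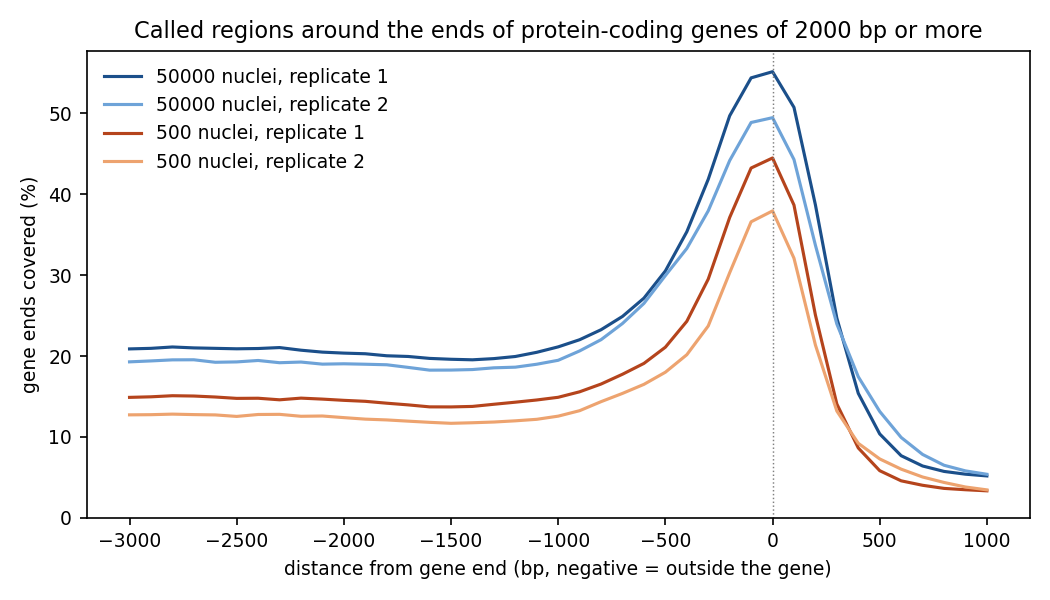
Lines show the percentage of gene ends covered by a called region (vertical axis) at each distance from the end (horizontal axis, bp, negative values outside the gene), with 1 line per library. Both libraries of 500 nuclei run below both libraries of 50000 nuclei, and at the gene end the 4 values are 55.1%, 49.5%, 44.5% and 37.9%.

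Broad regions broke into pieces. Of 18681 reference regions that were single in both libraries of 50000 nuclei, 696 (3.73%) were split into 2 or more in both libraries of 500 nuclei, and 4 showed the reverse. The 588 reference regions with at least 3000 bases in both libraries of 50000 nuclei held a mean of 1.82 and 1.21 called regions there and 2.67 and 2.46 with 500 nuclei. All 588 were called in both libraries of 500 nuclei, and 282 still had at least 3000 covered bases in both.

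The regions that lost most bases each overlapped from 1 to 4 protein-coding genes, and positions are given on TAIR10. A region over AT5G38030 and 1 further gene (chr5:15167499-15171672) was covered by 3280 and 3691 bases with 50000 nuclei and by 587 and 1078 with 500 nuclei. CSLC04, a glucan synthase of xyloglucan formation, lay under a region (chr3:10500017-10509544) with 7820 and 9528 bases against 5552 and 6570, and that region went from 4 and 1 called pieces to 6 and 8. The widest region named here, over AT1G21920 and 2 further genes (chr1:7691589-7706817), had 13060 and 15229 bases against 10999 and 12089.

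The group of 10 regions with the largest loss also included genes with well known products. PYK10, the myrosinase of endoplasmic reticulum bodies in roots, lay under a region (chr3:2842948-2848614) of 5075 and 5366 bases with 50000 nuclei and 3416 and 1863 with 500 nuclei. LBD4, a LOB domain transcription factor, lay under a region (chr1:11212570-11218087) with 4622 and 5518 against 1895 and 3789 bases. Among broad regions the smallest shares kept included that over HA2, a plasma membrane proton pump (chr4:14775041-14779406), with 4091 and 3426 against 2097 and 1362 bases, or 46.0% on average. In each of these named regions the groups did not overlap, which the choice of narrowed regions fixes.

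The 5 regions with the best scores over all 4 libraries were called in each of them. The first, over AT3G20362 (chr3:7103474-7104814), was covered by 1337 and 1341 bases with 50000 nuclei and by 1296 and 1315 with 500 nuclei. The other 4 of the leading 5 lay near AT2G01021 at the start of chromosome 2 and near AT3G41762 on chromosome 3, stretches in which copies of the ribosomal RNA genes lie. The region near AT2G01021 (chr2:6808-8908) held 2099 and 2101 bases against 1796 and 1800.

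Lost regions were short. They held a median of 318 and 295 bases in the libraries of 50000 nuclei, and 961 of the 1034 (92.9%) averaged under 600 bases. Regions near gene ends were lost in 3.52% of cases, regions inside protein-coding genes in 6.16% and regions elsewhere in 6.90%. These classes differ in score, with median ranks of 40.9, 46.7 and 48.1. Within ranks 60 to 80 the shares lost were 3.75%, 4.93% and 6.62%. No test was made of these differences.

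A single lost region stood far above the others in score. It lay over RLP31, a member of the receptor-like protein family (chr3:1535577-1536200), had ranks of 22.9 and 0.676 in the libraries of 50000 nuclei and covered 624 and 471 bases there and none with 500 nuclei. Crude replicate 1 covered 567 bases of it and crude replicate 2 none, the H2AX-GFP libraries 484 and 156, and the root libraries 547 and 0. The region was thus called in some libraries of 50000 nuclei and absent from others of the same preparation. The next best lost region, over EMB1873, an agmatine-degrading enzyme of polyamine synthesis, and 1 further gene (chr5:2627993-2628667), had a mean rank of 57.4 and held 675 and 641 bases.

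The other 8 of the 10 best-ranked lost regions had mean ranks between 60.9 and 65.8, and 3 of them are described here. SCRM2, a bHLH partner of the factors that drive stomatal development, had a region (chr1:4383493-4384507) of 503 and 1015 bases with 50000 nuclei and none with 500 nuclei. A region over HB30, a zinc-finger homeodomain gene (chr5:4937322-4938059), held 444 and 738 bases and none. The gene nearest to another lost region (chr3:11806556-11807191), at 3534 bp, was BR6OX2, which encodes an oxidase of brassinosteroid synthesis, and that region held 467 and 632 bases. All 3 ranked better in replicate 2 than in replicate 1 of 50000 nuclei.

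The best-ranked partly kept regions were called in replicate 1 of 500 nuclei in 8 of 10 cases. EXT3, an extensin of the cell wall, lay 960 bp from a region (chr1:7455970-7457430) with 1461 and 917 bases in the libraries of 50000 nuclei, 1087 in replicate 1 and none in replicate 2 of 500 nuclei. SIP3, a kinase that interacts with calcium sensors, lay at a region (chr4:15068529-15069704) with 1118 and 1112 bases, then 942 and none. The 2 exceptions lay on chromosome 2 near AT2G08986 and AT2G06960 and were called in replicate 2 alone, with score ranks of 0.137 and 0.618 there.

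Among genes of short RNAs, tRNA genes mostly stayed covered and snoRNA genes less often did. Of 475 tRNA genes, which supply transfer RNAs and are read by RNA polymerase III, covered in both libraries of 50000 nuclei, 456 (96.0%) were covered in both libraries of 500 nuclei and 6 in neither. Of 146 snoRNA genes, whose products guide the chemical modification of ribosomal RNA, 92 (63.0%) were covered in both and 27 in neither. For protein-coding genes as a whole 84.0% of 17245 were covered in both, counting the gene body alone. This contrast was described after the values were seen and was not tested.

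The regions that held the snoRNA genes were not themselves lost. The 27 snoRNA genes left uncovered lay in 21 reference regions, none of which was lost. Of 101 reference regions that held a snoRNA gene, 99 were kept, with a median of 1364.5 bases with 50000 nuclei and 850 with 500 nuclei. Near U49.1 the region (chr4:2586985-2590420) was covered by 3091 and 3436 bases and by 2985 and 3033, and the gene itself fell outside the called part. Of the 6 uncovered tRNA genes, 4 lay in lost regions. For miRNA genes, the sources of small regulatory RNAs, 38 of 60 (63.3%) were covered in both and 6 in neither, and those 6 all lay in regions that were at least partly kept.

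Gene-poor stretches kept more of their length. In windows of 1 Mb with under 50 protein-coding genes, 177 reference regions kept a median of 81.4% of their bases and 32.2% were narrowed. In windows with 250 or more genes, 14385 regions kept 67.6% and 54.7% were narrowed. Loss followed no such order, with 3.39% in the first windows (6 regions), 5.95% in windows of 100 to 200 genes and 4.90% in the last. Replicate 2 of 500 nuclei called 89.8% of the reference regions in the first windows and 80.8% in the second, and replicate 1 called 93.2% and 93.1%. The windows were not matched on score rank and the differences were not tested.

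Gained regions were few and several lay together. Of the 41 gained regions, 7 fell between positions 3200001 and 3600000 of chromosome 2, a stretch known as a nuclear copy of mitochondrial DNA, which was singled out after the positions were seen. The libraries of 50000 nuclei called 14 and 11 regions there, covering 4594 and 3419 bases, and those of 500 nuclei called 21 and 19, covering 5999 and 5142 bases. The crude libraries called 20 and 16, the H2AX-GFP libraries 13 and 13 and the root libraries 13 and 11. Both counts with 500 nuclei were thus above those of every library of 50000 nuclei but crude replicate 1. In covered bases crude replicate 2 (5353) lay above replicate 2 of 500 nuclei. Every other library of 50000 nuclei lay below both, with 4675 bases in crude replicate 1 and 4886 in H2AX-GFP replicate 2. How much mitochondrial DNA each library held cannot be read from the lists, and its part was not tested.

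The gained regions with the best scores included a pair in that stretch. The region 87 bp from AT2G07773 (chr2:3242351-3242594) held 242 and 240 bases with 500 nuclei, 225 in crude replicate 1 and none in the other 7 libraries. The region over AT2G07655 (chr2:3245322-3245569) held 245 and 247 bases, 246 in crude replicate 1 and none in the other 7. Elsewhere, a gained region over AT1G32220 and 1 further gene (chr1:11609751-11610167) held 343 and 352 bases and was also called in crude replicate 2, both H2AX-GFP libraries and root replicate 2.

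Over genes, covered bases were measured in windows at both ends of each protein-coding gene, from 1000 bp outside to 200 bp inside. A gene could hold at most 2400 bases, and coverage beyond the windows was not counted. The score rank of a gene was the best rank of a region over it or within 1000 bp of it, gene body included. It was averaged over the libraries of 50000 nuclei with such a region. Rank and covered bases of a gene can therefore rest on different regions. Covered bases averaged 913 and 833 per tested gene with 50000 nuclei and 667 and 565 with 500 nuclei. No gene of 23881 passed limma at an adjusted p under 0.05 in either direction (0% called), the smallest adjusted p was 0.664, and 1777 genes had an unadjusted p under 0.05, of which 1770 were lower with 500 nuclei. Without replicate 2 of 500 nuclei that count was 650, and without replicate 1 of 50000 nuclei it was 1181. In the groups themselves 13200 genes (55.3%) were lower in both libraries of 500 nuclei than in both of 50000 nuclei and 58 (0.243%) were higher. The same fit on 25147 merged regions called none (0%), gave 1548 with an unadjusted p under 0.05 (510 without replicate 2 of 500 nuclei) and left 12471 (49.6%) lower and 103 (0.41%) higher without overlap. The labels do not say that replicates came from separate plants, so these p-values measure only the spread between libraries.

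In simulated data of this size, with 23880 genes, 100 were set to 0 and 100 to 50% of their level. Limma recovered 36 of the first and 2 of the second. Recovery of a fall shared by most genes was not tested. The fall in covered bases with 500 nuclei was common to most genes, with a median of -211.5 bases. Scalings that set the overall level of the libraries equal removed it, and the median over all tested genes was 26.8 after quantile normalisation and 6.33 after division by covered length. Directions below refer to covered bases as called, and lists that a scaling turned are named with their values. Of the 43 named genes, 17 had the opposite sign under at least 1 of quantile normalisation, division by covered length and the same covered length. Among those printed below these were UBP19, ATCSLC08, ATI2, ACT7, LOX2, LACS2, MYB66, FAR1 and the ammonium transporter gene AT4G13510, all of them with the same covered length except AT4G13510, which turned after division by covered length.

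The genes with the smallest unadjusted p were mostly of intermediate score rank. UBP19, a ubiquitin-specific protease, had 1718 and 1860 covered bases with 50000 nuclei and 579 and 721 with 500 nuclei. Its neighbour ATCSLC08, a cellulose synthase-like gene whose windows share that stretch, had 1448 and 1773 against 345 and 567. ATI2, an adaptor of selective autophagy, had 1596 and 1511 against 608 and 289. In all 3 the groups lay far apart, which the choice by smallest unadjusted p favours, and all 3 had an adjusted p of 0.664 in limma.

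Further genes among these 10 had values as far apart. ISU1, a scaffold for building iron-sulfur clusters in mitochondria, had 1200 and 1200 bases against 368 and 271. PP2A-4, a catalytic subunit of protein phosphatase 2A, had 1566 and 1588 against 546 and 684. MEE55 had 783 and 607 bases against 0 and 0, and none in the crude libraries either, while the H2AX-GFP libraries had 726 and 791. The genes with higher values were AT2G07773 and AT2G07655 on the stretch of chromosome 2 described above, with 0 and 0 against 577 and 578 bases and 0 and 0 against 508 and 430.

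Gene lists were set up to cover broadly active genes and the cell types that a whole seedling holds. In bulk material fewer nuclei of a type and less signal in each nucleus cannot be told apart. No list had a member called by limma. Each list is given by the members whose groups do not overlap, against 55.3% lower among all tested genes. The median share of covered bases kept and the median score rank were both taken over tested members with a covered base in at least 1 library of 50000 nuclei, which was 69.8% at rank 33.6 for the 23280 such genes. By rank these genes kept a median of 82.8% at 0 to 10, 77.7% at 10 to 20, 70.0% at 30 to 40, 66.7% at 40 to 50 and 62.3% at 50 to 60.

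Of the 12 lists, those of photosynthesis, housekeeping, wounding and early stress, and clock genes had the best ranks and kept most of their covered bases. The 53 photosynthesis genes, which mark green tissue, were covered in all 4 libraries without exception. They kept a median of 79.6% at a median rank of 8.47, against 82.8% for all such genes at ranks 0 to 10. Of the 53, 22 were lower without overlap. The 31 housekeeping genes kept 84.8% at rank 12.9, with 23 of 31 lower, and the 32 wounding and early stress genes kept 84.0% at rank 12.5, with 23 of 32 lower. The 21 clock genes kept 79.2% at rank 17.2, with 13 of 21 lower. After quantile normalisation the medians of these 4 lists turned positive (13.2, 148, 87.4 and 104 bases in this order). Division by covered length turned them positive as well (233, 250, 265 and 154 bases). With the best-scoring regions up to the same covered length in each library they stayed negative (-180, -42, -140 and -38.5 bases). The median over all tested genes was then 9.75 bases.

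Single members of these lists were chosen for lower values in both libraries of 500 nuclei, so the choice fixes their direction. PSBO1, a subunit of the oxygen-evolving complex, had 1522 and 1870 bases against 913 and 1113. ACT7, a vegetative actin, had 1879 and 2063 against 1504 and 1019. PRR7, a clock repressor, had 1305 and 1340 against 856 and 772. LOX2, a lipoxygenase of jasmonate synthesis, had 1390 and 1486 against 660 and 855. JAZ10, a jasmonate repressor, was covered in both libraries of 50000 nuclei and in neither of 500 nuclei, but its libraries of 50000 nuclei differed widely, with 48 and 1200 bases.

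The stomatal, meristem, vascular, root hair and cuticle lists had poorer ranks than the lists above and kept less. The endodermis list, also of a tissue layer, is given below with the root lists. The stomatal lineage list kept a median of 60.4% at rank 41.4, with 13 of 22 tested members lower without overlap. The meristem and stem cell niche list kept 64.5% at rank 43.4 (6 of 17), the vascular list 57.7% at rank 38.9 (13 of 28), the root hair and trichome list 58.0% at rank 43.6 (7 of 19) and the cuticle and epidermis list 58.3% at rank 30.3 (19 of 26). Against 66.7% for all such genes at ranks 40 to 50 and 70.0% at 30 to 40, the meristem list lay close and the others below, and no test was made. Quantile normalisation left the medians negative for the stomatal, vascular, root hair and cuticle lists (-12.2, -39.2, -1.75 and -38.5 bases) and turned that of the meristem list to 20.9. Keeping the best-scoring regions up to the same covered length in each library turned the same 4 medians positive (62, 115, 83.5 and 36.5 bases).

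The stomatal genes named here, EPF2 aside, were chosen for a large fall without overlap or for loss with 500 nuclei. OST1, the kinase through which abscisic acid closes stomata, had 1397 and 1334 bases with 50000 nuclei and 538 and 0 with 500 nuclei. GORK, the potassium efflux channel of guard cells, had 1744 and 1784 against 1274 and 328. SCRM2 had 503 and 1011 bases in its windows and none with 500 nuclei. Replicate 2 of 500 nuclei was the lower of its pair at OST1 and at GORK. EPF2, a peptide that restrains entry into the stomatal lineage, was added after its values were seen and had 2269 and 1857 against 2030 and 1903 bases, with a score rank of 0.893.

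Meristem, vascular and epidermal genes chosen in the same way gave further examples. SHR, a regulator of root radial patterning, had 1095 and 1026 bases against 321 and 191, and crude replicate 1 had 128. VND7, the switch for xylem vessel formation, had 287 and 281 against 0 and 0, while all 6 other libraries covered it. PXY, a receptor kinase of the vascular cambium, had 128 and 63 against 0 and 0 and was uncovered in both crude libraries. LACS2, an acyl-CoA synthetase of cutin formation, had 1773 and 1691 against 710 and 516. MYB66, which specifies non-hair cells in the root epidermis, had 756 and 843 against 0 and 356, and both root libraries covered none of it.

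The remaining lists, of root and reproductive genes, lay close to all genes of like rank or above them. The endodermis and suberin list kept a median of 63.7% at rank 47.3 (13 of 22 lower without overlap), the nutrient uptake list 70.8% at rank 42.7 (13 of 27) and the seed and reproductive list 67.2% at rank 51.4 (6 of 22). Over the 17 endodermis members covered in both libraries of 50000 nuclei the median was 74.7%, so that value depends on which members are counted. FAR1, which makes fatty alcohols for suberin, had 1717 and 1675 bases against 692 and 948. The ammonium transporter gene AT4G13510 had 2047 and 2242 against 1646 and 1426. bHLH39, a factor of the iron deficiency response, had 516 and 551 against 0 and 0, and the crude libraries had 690 and 0. SEP1, a floral identity gene, had 194 and 163 against 0 and 0. After quantile normalisation the medians of these lists were 5.62, 35.6 and 58.6 bases, and after division by covered length that of the endodermis list was -65.7 bases. The same covered length turned the endodermis median to 231.5 bases. It left a median of -35.75 bases for the seed and reproductive list and no difference for the nutrient uptake list. No test of any list against other genes was made.

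**Figure D4:**
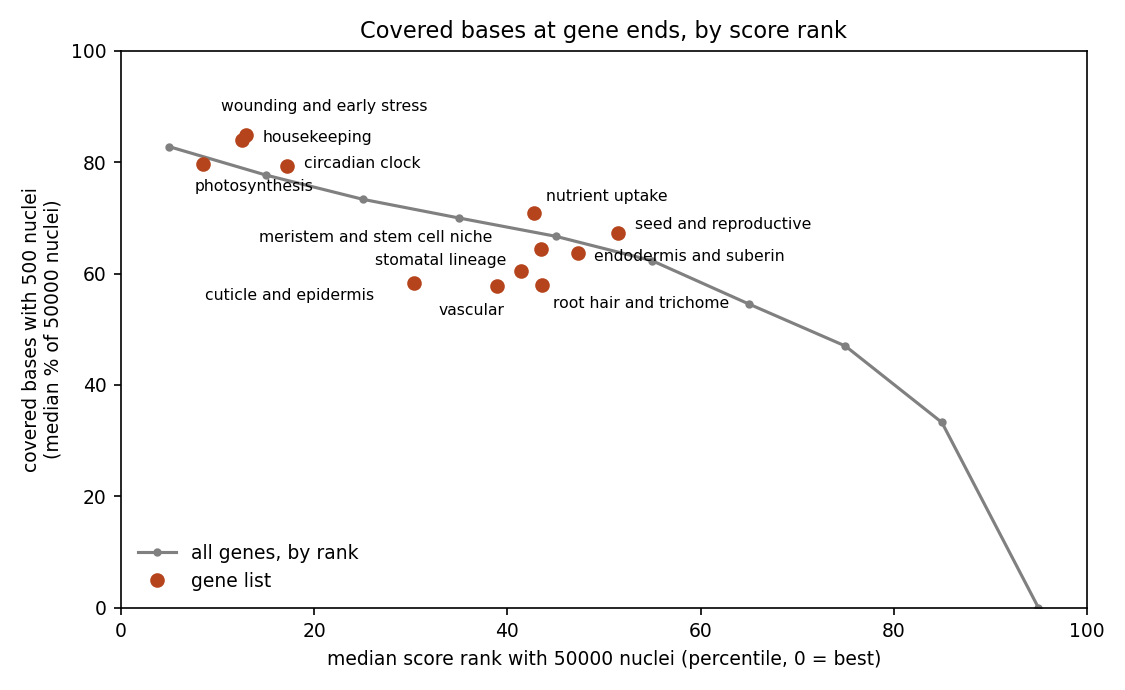
Each orange point is a gene list, placed by the median score rank of its genes with 50000 nuclei (horizontal axis, percentile, 0 is the best score) and the median covered bases with 500 nuclei as a percentage of those with 50000 nuclei (vertical axis). Both were taken over members covered in at least 1 library of 50000 nuclei. The grey line gives all such genes by rank, falling from 82.8% at ranks 0 to 10 to 0% at 90 to 100. Lists below it include the cuticle (58.3%) and vascular (57.7%) lists.

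The 6 other libraries, all of 50000 nuclei, did not define the classes and ranked them in the same order. Narrowed regions were called in 89.1% and 98.6% of cases in the crude libraries, 99.9% and 98.9% in the H2AX-GFP libraries and 94.8% and 89.1% in the root libraries. Partly kept regions were called in 54.3% to 85.3% of cases in the crude and root libraries and in 98.04% and 76.1% in the H2AX-GFP libraries. Lost regions were called in 31.3% and 61.8%, 91.4% and 60.3%, and 59.7% and 32.9%. In every library the lost class was the least often called.

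Lost regions were therefore patchy among libraries of 50000 nuclei and rarely absent from all of them. Of the 1034, 8 were called in none of the 6 libraries, 39 (3.77%) in all 6 and 151 (14.6%) in all 4 other seedling libraries. Among all 21043 reference regions 66.8% were called in all 6 and 76.3% in all 4 other seedling libraries. Just 11 of the 21043 were called in none of the 6, and the lost class held 8 of these. For narrowed regions 9132 of 11409 were called in all 6. The libraries that called fewest lost regions, crude replicate 1 and root replicate 2, also had the smallest covered lengths of the 6, 13.8 and 15.8 Mb. The part of covered length in these shares was not tested.

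**Figure D5:**
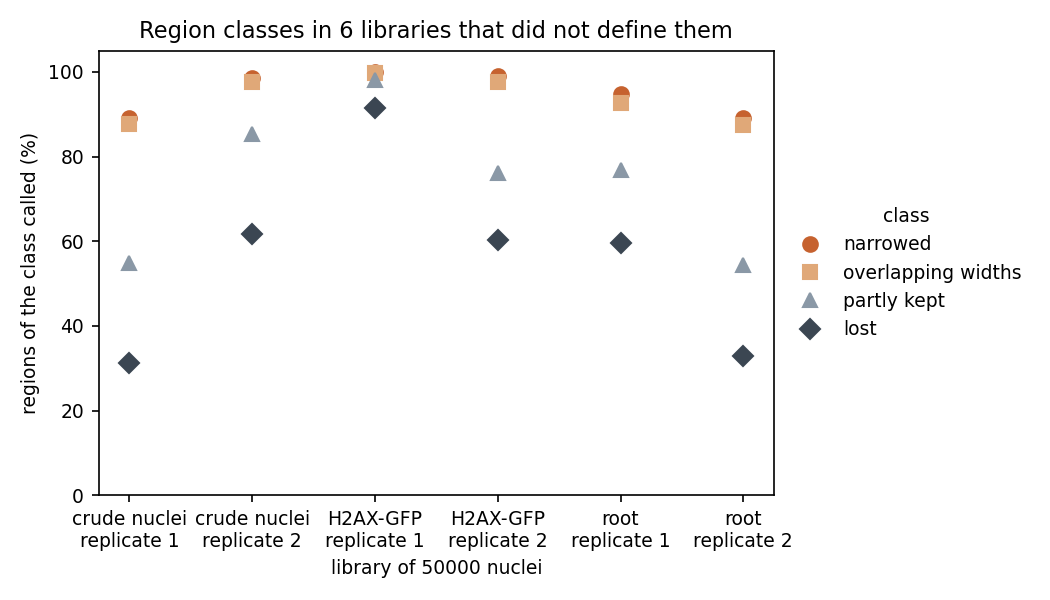
Points show the percentage of regions of each class (vertical axis) called in each of 6 libraries of 50000 nuclei that did not define the classes (horizontal axis). Of the 4 classes drawn, narrowed regions were called most often in every library and lost regions least often, with lost regions between 31.3% and 91.4%.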

How the data were processed

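Region lists of 10 ATAC-seq libraries were used, 4 of them for the comparison and 6 as further libraries. The deposited lists hold the position and a score of each region called in that library. No aligner, peak caller or definition of the authors' score is given in the sources used here, so scores were turned into ranks inside each library and never compared between libraries. Per the submitters' processing notes, positions refer to TAIR10. Nuclei were sorted and libraries took 10 to 13 PCR cycles per the labels' protocols, which do not give the cycles of each library. The lists hold no counts, so depth is unknown.

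Genes came from the RefSeq table of TAIR10.1, joined by position, and a region was given to the overlapping or nearest protein-coding gene. As a check of the join, gene ends were covered more often than points 5000 bp away by each of the 4 libraries in 112 of 112 windows of 1 Mb holding 50 genes or more. The table held no strand and no exons, and no genome sequence was used here.

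Covered bases per gene window and per region merged over 10 libraries were fitted in R 4.3.3 by limma 3.58.1 (eBayes, trend and robust both on), with 5 groups of 2 in the fit, features covered in at least 2 libraries and a Benjamini-Hochberg adjusted p under 0.05. The procedure was tested on simulated data, in which 2 of 40 calls lay outside the changed genes. Single values per library were compared by an exact two-sided permutation test. Classes, ranks and lists are descriptions without a test. The 346 genes of the 12 lists were found in the table by locus, and 1 was not protein-coding in the table and was left out.

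The samples and gene lists were chosen with earlier results of these data known. Named regions were those with the best score rank in the lost, partly kept, gained and all-library classes and the largest change among narrowed and widened regions. Named genes were those of each list with the largest fall without overlap or the largest rise, those covered in both libraries of 50000 nuclei and in neither of 500 nuclei, and the 10 smallest unadjusted p-values.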

Additional observations from a re-analysis of the deposited data

How the results depend on the processing

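In all 16 alternatives over genes and 13 over regions limma called no feature at an adjusted p under 0.05. Counts at an unadjusted p under 0.05 ranged over genes from 424 after quantile normalisation to 6270 in a fit of only the 2 groups with the replicate number as a block, a fit chosen after seeing the data. With all 10 libraries, the replicate block gave 0 calls and a smallest adjusted p of 0.593, against 0.664. The numbers are not known to pair samples. Deviations of same-numbered libraries correlated at 0.51 between 50000 and 500 nuclei and between -0.22 and 0.43 for the other pairs of groups. The score ranks of each library of 500 nuclei correlated best with the same-numbered library of 50000 nuclei. The values were 0.95 and 0.90 for replicates 1 and 2, against 0.83 and 0.82 with the other. The 2 libraries of 50000 nuclei correlated at 0.86 with each other and the 2 of 500 nuclei at 0.83, below the same-numbered pairs. With the best-scoring regions up to the same covered length, 1382 genes were higher and 240 lower at an unadjusted p under 0.05, the reverse of the main direction.

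Requiring 50% of a region to be covered left 10184 regions kept, 6932 narrowed, 3823 lost and 77 gained. The better-scoring 50% of regions gave 8662 kept, 6293 narrowed, 347 lost and 70 gained, a difference in covered length of -5.26 Mb and in median width of -317 bp. The same number of regions gave 658 lost. The same covered length, which trims the libraries of 50000 nuclei most, gave 8082 kept, 5535 narrowed, 1 lost and 3918 gained. Leaving out 1 library gave 1563 to 3734 lost, 14492 to 17466 narrowed and 95 to 320 gained. Joining regions up to 150 bp apart changed no class count, and the remaining settings kept these counts within 1.5 times. Of 43 named genes, 19 took the opposite sign in at least 1 setting, and 18 of the 25 gene and setting pairs concerned came from quantile normalisation, division by covered length or the same covered length. Coverage around gene ends was computed under the main setting alone. Depth is unknown, so how far it limits these calls cannot be read from the lists.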
